A study of Hordeum vulgare with 39 samples.

Results

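In the developing barley grain, 181 genes were abundant in both the embryo and the seed maternal tissues and low in the endosperm. They were chosen on read counts divided by the total of the library and brought to a common total, a unit abbreviated CPM. The mean CPM of each tissue at each stage was taken, and the highest of these means was the maximum of that tissue. A gene was kept when its embryo maximum and its maternal maximum were both at least 20 CPM, lay less than 10-fold apart, and were each at least 10 times its endosperm maximum. The table held 83990 entries, 1 transcript each and called genes here, of which 50367 had a count in some library. The 2 level criteria alone were met by 7864 genes, and the endosperm criterion left 181 of them. All 181 passed the filter on low counts of the test used below. The choice rests on this scaling: with CPM computed on library sizes adjusted by the trimmed mean of M-values (TMM), which assumes that most genes do not change, 94 genes met the rule, all of them among the 181.

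All libraries came from 1 genotype, the six-rowed spring barley cultivar Morex, whose seeds were dissected into tissues. Stages are days after pollination (DAP), and the embryo was taken at 8, 16, 24 and 32 DAP. The seed maternal tissues were taken at 4, 8, 16 and 24 DAP, and the endosperm at 4, 8, 16, 24 and 32 DAP. Each of these 13 groups had 3 libraries, 39 in all, made from poly-A selected RNA. The labels do not say whether replicates came from separate plants, so the p-values below measure the spread between these samples, which may be technical.

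The 3 compartments differ in origin. The embryo and the endosperm both arise from fertilisation, and the endosperm is the starchy store of the grain, while the seed maternal tissues (in general the pericarp, seed coats and related layers) are formed by the mother plant and carry its genotype only. The embryo and the maternal layers are thus of different plant generations, and both border on the endosperm. The reference table at hand matched 0 of the identifiers, so no gene name, function, sequence or length is given, and the labelled tissues could not be checked against known marker genes. Identifiers are given in full once and without the shared prefix HORVU.MOREX.r3. and the suffix afterwards.

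Total counts ranged from 15248254 to 36732347 in the embryo, from 25882919 to 34193328 in the seed maternal tissues and from 6148131 to 36307192 in the endosperm. Some libraries stood apart in the 181 genes. Replicate 3 of the seed maternal tissues at 4 DAP lay at least 2-fold from both of its fellow replicates in 40 genes, replicate 1 at 16 DAP in 28 and replicate 2 at 24 DAP in 17. In the embryo, replicate 1 at 16 DAP did so in 20 genes. Replicate 3 of the endosperm at 16 DAP lay below both others in 11 genes. Leaving these libraries out in turn gave between 177 and 187 members. The labels carry library numbers that fall into 6 runs, here read only as runs of numbers: no run holds seed maternal tissues of both 8 DAP and of 16 or 24 DAP.

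Summed over the 181 genes, the embryo at 8 DAP gave 1.01% ± 0.0956 of all counts (SD, n = 3 here and below), at 16 DAP it gave 1.86% ± 0.0614, at 24 DAP 1.03% ± 0.0440 and at 32 DAP 0.807% ± 0.0146. The share in the seed maternal tissues was 1.52% ± 0.0742, 1.29% ± 0.0251, 1.27% ± 0.0182 and 1.15% ± 0.118 over the stages 4, 8, 16 and 24 DAP. In the endosperm the means were 0.0350%, 0.0467%, 0.0240%, 0.0240% and 0.0303% over the stages 4, 8, 16, 24 and 32 DAP. The rule fixes the gap to the endosperm, so this gap is a description. The embryo at 16 DAP carried the highest share, and its 3 libraries lay above those of every other group. In whole tissues, fewer cells of a type and less RNA per cell cannot be told apart.

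**Figure D1:**
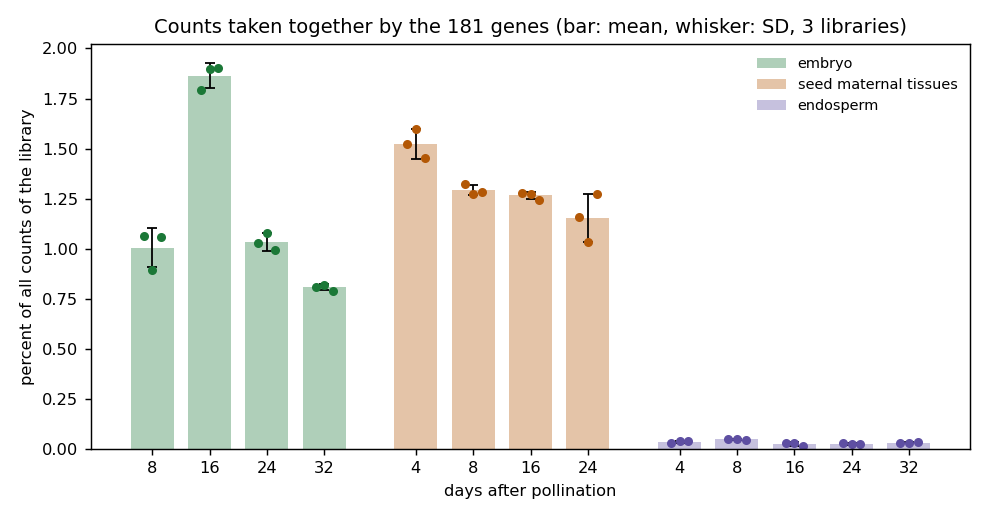
Percent of each library's counts that fell on the 181 genes, by days after pollination, with embryo, seed maternal tissues and endosperm from left to right. Points are libraries, bars the means and whiskers the SD of 3 libraries. The embryo at 16 DAP stands highest at 1.86%, and all endosperm means lie under 0.05%.

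Across the 181 genes, the embryo maximum had a median of 62.0 CPM (20.4 to 3749), the maternal maximum a median of 75.5 CPM (20.4 to 1214) and the endosperm maximum a median of 2.16 CPM (0 to 39.7). The maternal maximum was the higher of the 2 in 105 genes and the embryo maximum in 76. In 105 genes the 2 maxima lay within 2-fold of each other. The smaller maximum reached 100 CPM or more in 44 genes and stayed under 50 CPM in 98. It was at least 20 times the endosperm maximum in 91 genes and at least 100 times in 21. The endosperm maximum was under 1 CPM in 50 genes and 5 CPM or more in 37. The same thresholds with the tissues exchanged kept 152 genes high in endosperm and embryo and low in the seed maternal tissues, and 135 high in endosperm and seed maternal tissues and low in the embryo.

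The level threshold cut close to HORVU.MOREX.r3.4HG0383280.1, with maxima of 20.4 CPM in the embryo and 27.2 CPM in the seed maternal tissues, which was kept. HORVU.MOREX.r3.6HG0617780.1, at 19.7 CPM in the embryo and 22.8 CPM in the seed maternal tissues, was not. At the fold threshold, HORVU.MOREX.r3.2HG0126510.1 was kept, its smaller maximum being 10.0 times the endosperm maximum. HORVU.MOREX.r3.7HG0639360.1, with maxima of 397.8 CPM in the embryo and 291.9 CPM in the seed maternal tissues, was left out at 9.90 times. The sharp limit thus left out some genes that were abundant in both tissues.

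Being high in both tissues did not mean being high at all times. Only 21 genes reached 20 CPM in all 8 embryo and maternal groups, 36 did so in all 4 embryo groups and 60 in all 4 maternal groups. In 37 genes some embryo group lay under 1 CPM, and in 32 genes some maternal group did. The range of a gene over the stages of a tissue, on the scale of log2(CPM + 1), had a median of 3.02 in the embryo and 2.73 in the seed maternal tissues. Among the 7683 genes that met the level criteria but not the endosperm criterion, these medians were 1.06 and 0.715. A gene could meet the rule through 1 high stage per tissue, so these ranges are given as a description. In the endosperm it was the other way round, with a median of 1.24 in the 181 genes and 2.08 in the others, where the low endosperm level of the 181 genes limits the range. The steadiest gene, picked after its values were seen, was HORVU.MOREX.r3.2HG0111520.1: its means ran from 57.7 to 81.5 CPM over the 8 embryo and maternal groups, against an endosperm maximum of 4.06 CPM.

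Most of the 181 genes were highest early in each tissue, and so were most of the 7683 genes that missed only the endosperm criterion. In the embryo, 33 genes peaked at 8 DAP, 91 genes at 16 DAP, 34 genes at 24 DAP and 23 genes at 32 DAP. In the maternal layers, 86 genes peaked at 4 DAP, 25 genes at 8 DAP, 33 genes at 16 DAP and 37 genes at 24 DAP. An embryo peak at 16 DAP and a maternal peak at 4 DAP coincided in 53 genes, 29.3% of the 181, against 10.6% of the 7683 other genes at like levels. Of those others, the embryo peak was 8 DAP for 35.3%, 16 DAP for 23.7%, 24 DAP for 14.7% and 32 DAP for 26.3%. Their maternal peak was 4 DAP for 43.0%, 8 DAP for 10.6%, 16 DAP for 15.6% and 24 DAP for 30.8%. The maternal peaks of the 181 genes at 4 DAP (47.5%) and 8 DAP (13.8%) lay near these shares. With TMM-scaled CPM, 82 of the 181 genes peaked at 16 DAP in the embryo and 47 combined this with a maternal peak at 4 DAP. These are stages of the highest mean, given without a test.

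**Figure D2:**
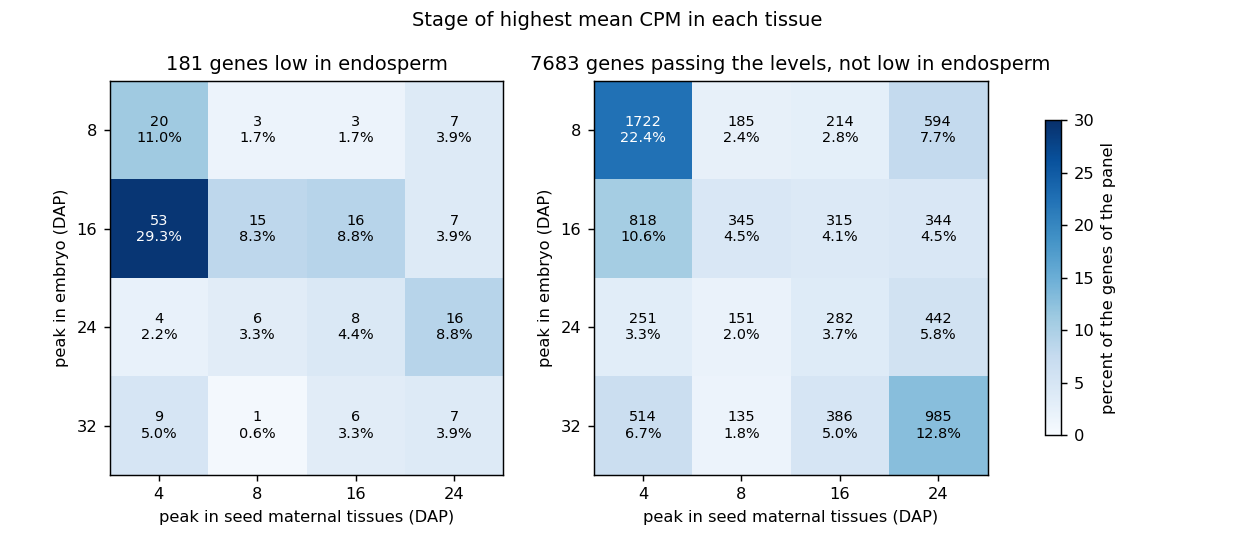
Number and percent of genes by the stage of the highest mean CPM in the embryo (rows, DAP) and in the seed maternal tissues (columns, DAP), for the 181 genes on the left and for the 7683 genes that met the level criteria but not the endosperm criterion on the right. The most filled cell of the left panel is an embryo peak at 16 DAP with a maternal peak at 4 DAP (53 genes, 29.3%), which holds 10.6% on the right.

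Grouped by peak, with 8 and 16 DAP called early in the embryo and 4 and 8 DAP early in the seed maternal tissues, 91 genes were early in both tissues, 37 late in both, 33 early in the embryo and late in the seed maternal tissues, and 20 late in the embryo and early in the seed maternal tissues. The 91 early genes had median levels of 40.2, 61.7, 15.0 and 9.86 CPM in the embryo at 8, 16, 24 and 32 DAP. Their medians in the seed maternal tissues were 67.6, 36.5, 12.0 and 5.38 CPM at 4, 8, 16 and 24 DAP. The 37 late genes had medians of 0.904, 14.9, 82.1 and 65.8 CPM in the embryo, and of 11.3, 13.4, 46.0 and 53.8 CPM in the maternal layers, over the same stages. At 8 DAP the median of the late genes was thus under 1 CPM in the embryo and above 10 CPM in the maternal layers. The grouping by peak sets the direction in which these medians change, so they are a description. The small endosperm signal had its highest mean at 4 or 8 DAP in 69 of the 91 genes early in both tissues, in 18 of the 33 early in the embryo alone, in 13 of the 20 early in the seed maternal tissues alone and in 9 of the 37 late genes, of which 28 had it at 24 or 32 DAP. Among the 7683 other genes at like levels, the endosperm peak was 4 DAP for 23.4%, 8 DAP for 39.5%, 24 DAP for 6.60% and 32 DAP for 25.1%. These are counts without a test. Whether this signal belongs to endosperm cells or to tissue carried over in dissection was not tested.

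**Figure D3:**
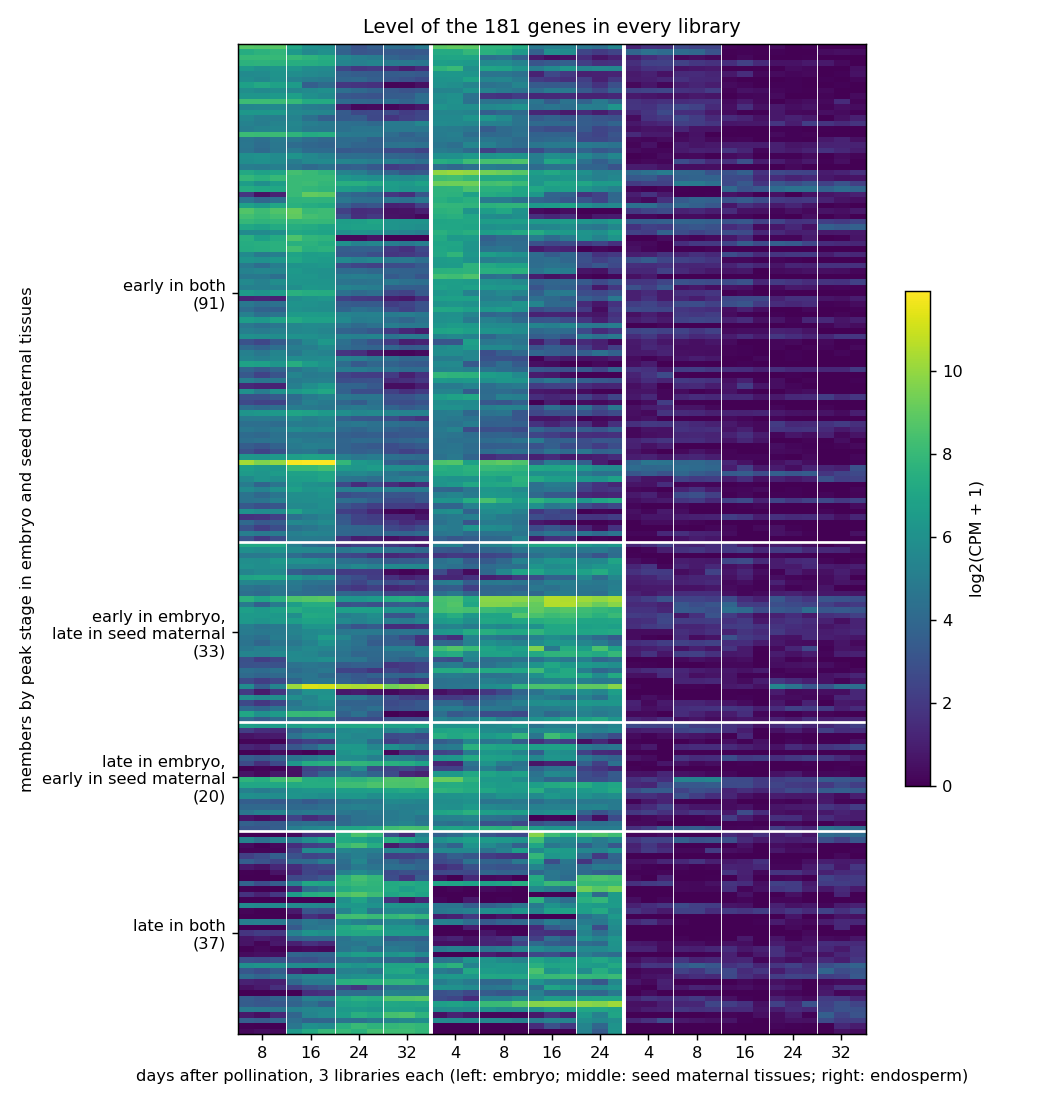
Level of the 181 genes (rows) in each of the 39 libraries (columns), as log2(CPM + 1) by colour, with embryo, seed maternal tissues and endosperm from left to right and 3 libraries per stage. Rows are grouped by early or late peak in the 2 tissues. The 91 genes early in both are mostly darker at 24 DAP than at their early stages, and the 37 late genes are mostly dark in the 8 DAP embryo. The grouping by peak sets these directions.

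The 8 genes with the highest smaller maximum are described one by one. CPM is not corrected for gene length, so their order is not an order of transcript number. HORVU.MOREX.r3.3HG0329490.1 came first. It had 55.0, 10.7 and 41.1 CPM in the embryo at 8 DAP, 1097, 2378 and 2299 CPM at 16 DAP, 1477, 1342 and 1476 CPM at 24 DAP and 646, 798 and 996 CPM at 32 DAP. Its maternal libraries held 22.1, 24.0 and 25.0 CPM at 4 DAP, 53.6, 61.3 and 209.9 CPM at 8 DAP, 362, 359.9 and 288 CPM at 16 DAP and 510.1, 503 and 902 CPM at 24 DAP. In the endosperm every library up to 16 DAP was under 1 CPM, and the 24 DAP libraries had 41.7, 22.5 and 8.31 CPM. The 24 DAP libraries lay above all 8 DAP libraries in both tissues, and the gene rose in the embryo (log2 fold change 5.34, SE 0.595, adjusted p = 1.36e-08) and in the seed maternal tissues (log2 fold change 2.49, SE 0.521, adjusted p = 0.00035). These and the following tests are edgeR's quasi-likelihood test, with p-values adjusted by the Benjamini-Hochberg method over 29594 genes.

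HORVU.MOREX.r3.7HG0656370.1 held the highest level of any of the 181 genes. Its embryo libraries had 1281, 779 and 1039.7 CPM at 8 DAP, 3545, 3853 and 3848 CPM at 16 DAP, 234, 87.1 and 68.6 CPM at 24 DAP and 11.5, 8.74 and 10.0 CPM at 32 DAP. Its maternal libraries had 368, 413 and 109 CPM at 4 DAP, 424, 494 and 388 CPM at 8 DAP, 9.77, 32.2 and 25.7 CPM at 16 DAP and 11.0, 1.01 and 0.3 CPM at 24 DAP. The gene was at its lowest in both tissues at the last stage, with replicate 3 of the 4 DAP and replicate 1 of the 24 DAP maternal libraries far from their fellows. It fell between 8 and 24 DAP in the embryo (log2 fold change -3.02, SE 0.69, adjusted p = 0.000593) and in the seed maternal tissues (log2 fold change -6.77, SE 0.83, adjusted p = 1.67e-07). Endosperm libraries of this gene had 13.3, 24.3 and 22.9 CPM at 4 DAP and 0, 0 and 0.0857 CPM at 32 DAP.

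HORVU.MOREX.r3.6HG0595750.1 also fell early and in both tissues. At 24 DAP it had 14.2, 7.25 and 11.3 CPM in the embryo, against 439, 409 and 432 CPM at 8 DAP. The maternal libraries had 25.0, 19.7 and 40.4 CPM at 24 DAP, against 216, 216 and 150.0 CPM at 8 DAP and 461, 512 and 469 CPM at 4 DAP. No library of one stage reached into the range of the other, and the gene fell in the embryo (log2 fold change -5.30, SE 0.329, adjusted p = 1.42e-13) and in the seed maternal tissues (log2 fold change -2.84, SE 0.292, adjusted p = 6.43e-09). HORVU.MOREX.r3.3HG0221900.1 had 38.7, 33.4 and 19.1 CPM at 24 DAP against 145, 111 and 129 CPM at 8 DAP in the embryo (log2 fold change -2.10, SE 0.322, adjusted p = 2.44e-06). It also fell in the other tissue, with 63.0, 37.2 and 39.3 CPM at 24 DAP against 672, 591 and 437 CPM at 8 DAP in the seed maternal tissues (log2 fold change -3.67, SE 0.341, adjusted p = 6.08e-10). HORVU.MOREX.r3.7HG0727920.1 had 77.1, 66.0 and 60.1 CPM at 24 DAP against 236, 186 and 248 CPM at 8 DAP in the embryo (log2 fold change -1.73, SE 0.225, adjusted p = 1.21e-07). Maternal libraries of this gene had 45.2, 35.4 and 44.6 CPM at 24 DAP against 144, 148 and 141 CPM at 8 DAP (log2 fold change -1.85, SE 0.226, adjusted p = 8.09e-08). The replicates of 7HG0727920 lay close together, and its 2 falls did not pass as different from each other (adjusted p = 0.891).

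The remaining 3 did not follow one course in the 2 tissues. HORVU.MOREX.r3.6HG0615360.1 had 75.5, 73.8 and 88.2 CPM at 24 DAP against 202, 129 and 182 CPM at 8 DAP in the embryo (log2 fold change -1.11, SE 0.332, adjusted p = 0.00625). The maternal libraries had 1186, 1008 and 1248 CPM at 24 DAP and 898, 889 and 928 CPM at 8 DAP, a difference that did not pass (log2 fold change 0.28, SE 0.327, adjusted p = 0.544). HORVU.MOREX.r3.2HG0183690.1 showed the opposite: 223, 205 and 268 CPM at 24 DAP and 217, 171 and 302 CPM at 8 DAP in the embryo, overlapping ranges, but 6.06, 6.19 and 9.34 CPM at 24 DAP against 83.0, 83.8 and 55.4 CPM at 8 DAP in the seed maternal tissues (log2 fold change -3.43, SE 0.331, adjusted p = 1.17e-09). This gene had the highest endosperm level of the 8, with 39.1, 38.5 and 41.4 CPM at 8 DAP. HORVU.MOREX.r3.5HG0468240.1 had 130.5, 88.5 and 91.2 CPM at 24 DAP against 312, 349.7 and 268 CPM at 8 DAP in the seed maternal tissues (log2 fold change -1.64, SE 0.264, adjusted p = 8.8e-06). In the embryo it had 174, 173 and 143 CPM at 24 DAP and 97.3, 60.8 and 99.1 CPM at 8 DAP, a rise short of the 2-fold minimum (log2 fold change 0.92, SE 0.26, adjusted p = 0.00396).

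**Figure D4:**
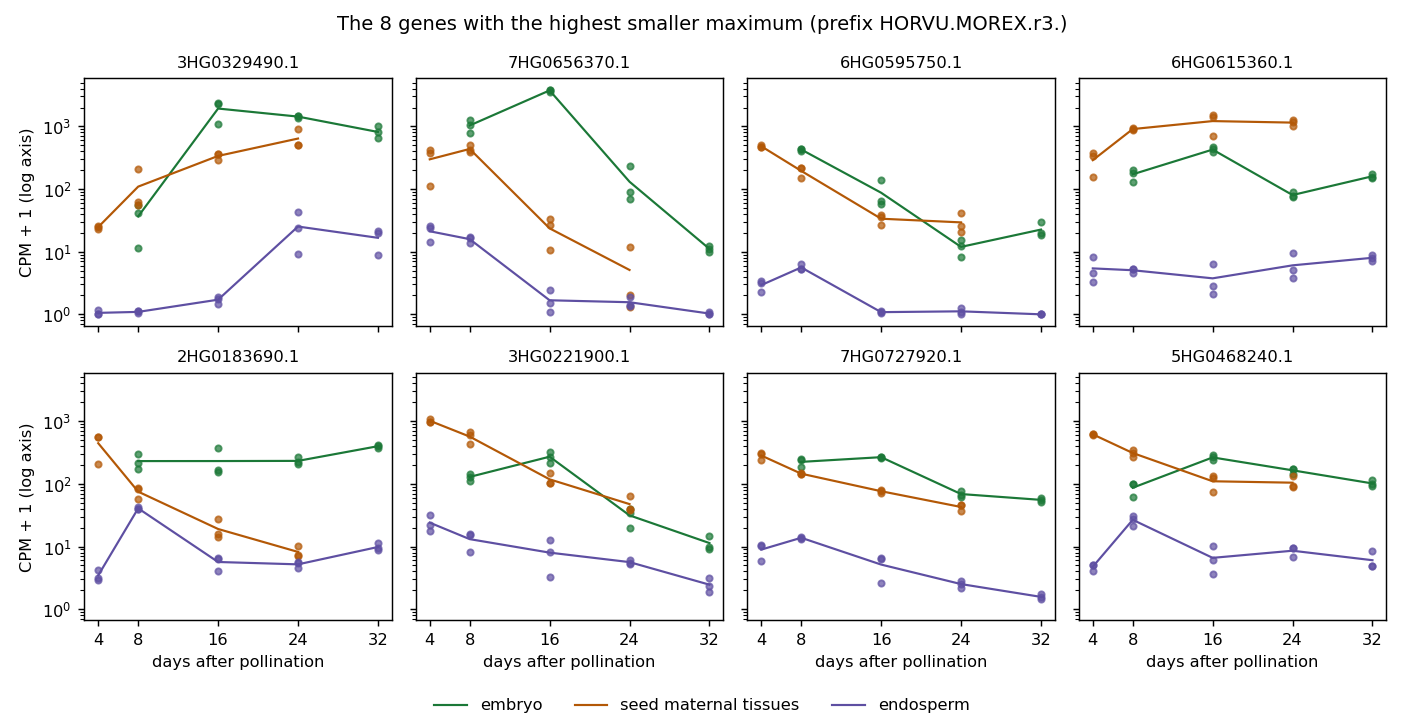
CPM + 1 on a log axis against days after pollination for the 8 genes with the highest smaller maximum. Points are libraries and lines join group means for embryo, seed maternal tissues and endosperm; in each panel the endosperm line stays below the highest values of the other 2 tissues.

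At the other end, 3 genes had no more than 3 counts in any endosperm library, where 3 counts correspond to between 0.0826 and 0.488 CPM. HORVU.MOREX.r3.1HG0069130.1 had 0 counts in all 15 endosperm libraries. Its embryo libraries had 0.0656, 0 and 0.299 CPM at 8 DAP, 0.188, 0.065 and 0.398 CPM at 16 DAP, 68.6, 88.5 and 73.1 CPM at 24 DAP and 0.243, 1.67 and 2.14 CPM at 32 DAP. Among the 4 embryo stages the gene was thus abundant at 24 DAP alone. The gene was broader in the seed maternal tissues, with 4.15, 4.89 and 29.3 CPM at 4 DAP, 78.2, 70.9 and 38.8 CPM at 8 DAP, 10.7, 64.0 and 56.2 CPM at 16 DAP and 3.97, 1.69 and 1.60 CPM at 24 DAP. HORVU.MOREX.r3.5HG0526120.1 was highest in the same groups, with 16.4, 46.2 and 5.91 CPM in the 24 DAP embryo and 34.5, 16.6 and 25.5 CPM in the 8 DAP maternal libraries. HORVU.MOREX.r3.7HG0747230.1 was high in the embryo at 8 DAP, with 27.5, 27.5 and 33.5 CPM, and in the seed maternal tissues at 16 DAP, with 19.3, 26.6 and 18.6 CPM.

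Stages within a tissue were then compared. The rule set tissues against each other and not stages, but it used the highest stage of each tissue: 46 of the 181 genes reached 20 CPM in the embryo at 1 stage alone and 43 did so in the seed maternal tissues, and such genes differ between stages by the way they were chosen. The counts of called genes below are therefore a description beside the shares over all genes, and nothing about the 181 genes as a set is read from their number. The p-values of single genes, here and above, share this limit where a compared stage was the peak through which the gene was chosen. A call needed an adjusted p under 0.05 together with a change of 1 or more, in size, on the log2 scale. In the embryo, 60 of the 181 genes were higher at 24 DAP than at 8 DAP and 65 were lower, 125 in either direction. Of all genes tested, 20.2% were called higher, 14.9% lower and 35.1% in either direction in this comparison. The calls made up 33.1% and 35.9% of the 181 genes. The median log2 fold change was -0.35 in the 181 genes and 0.02 in all genes tested. Replicates 1 and 2 alone, which lie in 1 run of library numbers, gave 63 higher and 62 lower. Genes high in the seed maternal tissues alone by the same thresholds, 928 in number, summed to 2867 CPM in the embryo at 24 DAP and to 1338 CPM at 8 DAP, against at least 107251 CPM in every maternal group. The choice of those genes keeps their embryo level low, and their part in the embryo values was not tested.

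By fitted log2 fold change, the 3 embryo rises ranked first were of genes with 0 counts in every library of the 8 DAP embryo, where the size of the rise is known only as a lower bound. By that bound the order differs: HORVU.MOREX.r3.6HG0614670.1, with no more than 1 count in an 8 DAP library, stood at 1962-fold and HORVU.MOREX.r3.3HG0222560.1 at 1448-fold, both named after their values were seen. HORVU.MOREX.r3.5HG0423060.1 had 168, 375 and 239 CPM in the embryo at 24 DAP, at least 1743-fold over 3 counts in each 8 DAP library (adjusted p = 9.01e-09). HORVU.MOREX.r3.3HG0319100.1 had 195, 323 and 239 CPM at 24 DAP, at least 1688-fold higher (adjusted p = 1.45e-08). HORVU.MOREX.r3.2HG0200880.1 had 152, 189.5 and 246 CPM at 24 DAP, at least 1311-fold higher (adjusted p = 2.71e-06). At 32 DAP the first 2 had dropped to 6.27, 1.74 and 32.7 CPM (adjusted p = 0.000538 against 24 DAP) and to 6.02, 2.57 and 10.3 CPM (adjusted p = 0.000145 against 24 DAP), while 2HG0200880 had 73.7, 77.9 and 57.1 CPM. All of them were also present in the seed maternal tissues at 24 DAP, with 331, 396 and 299 CPM for 5HG0423060, 339, 367 and 319 CPM for 3HG0319100 and 45.9, 5.86 and 50.9 CPM for 2HG0200880. Replicate 2 of the maternal libraries was far below the others in 2HG0200880. Embryo libraries of 24 and 32 DAP share no run of library numbers, so for the drops at 32 DAP stage and run cannot be told apart.

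The 3 largest embryo falls were of genes still high at 16 DAP. HORVU.MOREX.r3.2HG0209220.1 had 0.236, 0.248 and 0.524 CPM in the embryo at 24 DAP, against 184, 107 and 152 CPM at 8 DAP and 379, 228 and 206 CPM at 16 DAP (log2 fold change -8.66, SE 0.692, adjusted p = 4.52e-11 for 24 over 8 DAP). HORVU.MOREX.r3.4HG0406270.1 had 3.84, 1.86 and 2.06 CPM at 24 DAP, against 409, 282 and 395 CPM at 8 DAP (log2 fold change -7.15, SE 0.46, adjusted p = 4.93e-13). HORVU.MOREX.r3.5HG0465250.1 had 0.945, 0.248 and 0.262 CPM at 24 DAP, against 41.6, 43.4 and 49.1 CPM at 8 DAP (log2 fold change -6.58, SE 0.514, adjusted p = 5.04e-12). That the embryo libraries of 24 DAP and 8 DAP did not overlap was a condition for naming these genes.

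Between successive embryo stages, 73 genes were higher and 9 lower at 16 DAP than at 8 DAP, where 11.8% of all genes tested were called higher and 4.93% lower. At 24 DAP, 37 genes were higher and 83 lower than at 16 DAP, with 9.75% called higher and 11.8% lower among all genes. At 32 DAP, 7 were higher and 46 lower than at 24 DAP, with 1.83% and 5.35% among all genes, or 53 genes in either direction against 7.18% of all. No run of library numbers holds embryo libraries of both 24 and 32 DAP, so stage and run cannot be told apart in this last step. The medians of the 181 genes were 0.67, -0.999 and -0.57 on the log2 scale for these 3 steps, where those of all genes lay between 0 and 0.01. Called rises were thus the more numerous at the first of these steps and called falls at the 2 that followed. The rule takes the highest stage of each tissue, and 91 of the 181 genes had theirs at 16 DAP in the embryo, so this is a description. The few genes lower at 16 DAP numbered 5 when replicate 2 or 3 of 16 DAP was left out, and the 7 higher at 32 DAP numbered 2 without replicate 2 of 24 DAP and 4 without replicate 1 of 24 DAP.

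In the seed maternal tissues more of the 181 genes were called lower than higher, again as a description. Of the 181 genes, 35 were higher at 24 DAP than at 8 DAP and 88 were lower, while 14.6% of all genes tested were called higher and 12.6% lower. The 7683 other genes at like levels also had more falls than rises, with 6.27% called higher and 11.8% lower. The median log2 fold change was -0.94 in the 181 genes and 0.08 in all genes tested. The 24 DAP libraries and the 8 DAP libraries lie in different runs of library numbers, so no comparison within a run could be made. In a model with a term for the run, estimated over all 3 tissues, 12 genes were called higher and 58 lower. Embryo-enriched genes, 211 chosen by the same thresholds as high in the embryo alone, summed to 963 CPM in the maternal libraries at 24 DAP and to 314 CPM at 8 DAP, against 25018 and 16633 CPM in the embryo at these stages. The choice of those genes keeps their maternal level low, and their part in the maternal values was not tested.

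Of the maternal rises ranked first by fitted log2 fold change, HORVU.MOREX.r3.6HG0538290.1 had 133, 15.8 and 87.6 CPM at 24 DAP and 0 counts at 8 DAP, at least 762-fold higher (adjusted p = 7.31e-07). Replicate 2 lay far below the other libraries of 24 DAP. HORVU.MOREX.r3.5HG0473560.1 had 181, 234 and 89.3 CPM at 24 DAP and no more than 2 counts in a library at 8 DAP, at least 1625-fold higher (adjusted p = 1.22e-07), a call that was lost with the run term (adjusted p = 1), although the fitted log2 fold change was 10.26 with that term and 11.97 without it. At 16 DAP it was already present, with 203, 32.6 and 17.6 CPM, replicate 1 far above the others. HORVU.MOREX.r3.5HG0429390.1 had 635, 434 and 636 CPM at 24 DAP, against 0.292, 0.139 and 0.0362 CPM at 8 DAP (log2 fold change 11.68, SE 0.915, adjusted p = 1.01e-10). In the embryo this gene had 155, 203 and 206 CPM at 24 DAP, against 0.0656, 0 and 0.0272 CPM at 8 DAP, at least 1257-fold higher (adjusted p = 2.15e-10), so that it rose in both tissues over the same interval.

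The maternal falls ranked first by fitted log2 fold change ended at or near 0. 4HG0406270, already among the embryo falls, had 0 counts in all 24 DAP maternal libraries, against 96.6, 141 and 67.2 CPM at 8 DAP, at least 1044-fold lower (adjusted p = 6.08e-14). HORVU.MOREX.r3.2HG0116940.1 likewise had 0 counts at 24 DAP, against 97.9, 82.7 and 50.4 CPM at 8 DAP, at least 790-fold lower (adjusted p = 3.33e-13). HORVU.MOREX.r3.4HG0415490.1 had 0, 0.13 and 0.0667 CPM at 24 DAP, against 52.4, 59.9 and 36.3 CPM at 8 DAP (log2 fold change -9.50, SE 0.838, adjusted p = 5.28e-10). All 3 were still present at 16 DAP at a low level, with 0.27, 0.15 and 0.372 CPM for 4HG0406270, 0.889, 0.714 and 0.279 CPM for 2HG0116940 and 2.86, 5.30 and 4.06 CPM for 4HG0415490, so in CPM most of the decline lay between 8 and 16 DAP. On the log2 scale the later step was the larger one for 4HG0415490, at -5.81 for 24 over 16 DAP and -3.69 for 16 over 8 DAP.

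Over successive maternal stages, 19 genes were higher and 32 lower at 8 DAP than at 4 DAP, with 6.61% and 4.24% called in these directions among all genes tested. Without replicate 3 of 4 DAP, the library that stood apart most, 30 were higher and 33 lower. At 16 DAP, 25 were higher and 72 lower than at 8 DAP, with 9.18% and 8.51% among all genes. With the run term these became 5 higher and 35 lower. At 24 DAP, 17 were higher and 53 lower than at 16 DAP, with 4.18% and 3.94% among all genes, or 70 genes in either direction against 8.12% of all, and here both stages lie in 1 run. Called falls outnumbered called rises at each of the 3 steps, in genes of which 86 had their maternal peak at 4 DAP, so this too is a description. Of the 7683 other genes at like levels, 3.63% were higher and 3.03% lower at the first step. These shares were 4.11% and 8.28% at 16 over 8 DAP, and 1.64% and 3.10% at 24 over 16 DAP.

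The 2 tissues were then compared over the interval they share. At 24 against 8 DAP, 41 genes were lower in both tissues (4.35% of all genes tested), 22 were higher in both (5.52%), 17 were higher in the embryo and lower in the seed maternal tissues (1.92%), and 7 were lower in the embryo and higher in the seed maternal tissues (1.25%). A call in the embryo alone was made for 38 genes, 21.0% of the 181 against 22% of all genes tested. A call in the seed maternal tissues alone was made for 36 genes (14.2% of all), and in neither tissue for 20 (50.8% of all). A call in one tissue alone does not show a difference between tissues, which was tested as an interaction. The change from 8 to 24 DAP was more upward in the embryo in 89 genes and more upward in the seed maternal tissues in 32, against 15.8% and 12.5% of all genes tested. All 24 genes with opposite calls in the 2 tissues were among these. With the run term the counts were 74 and 20.

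**Figure D5:**
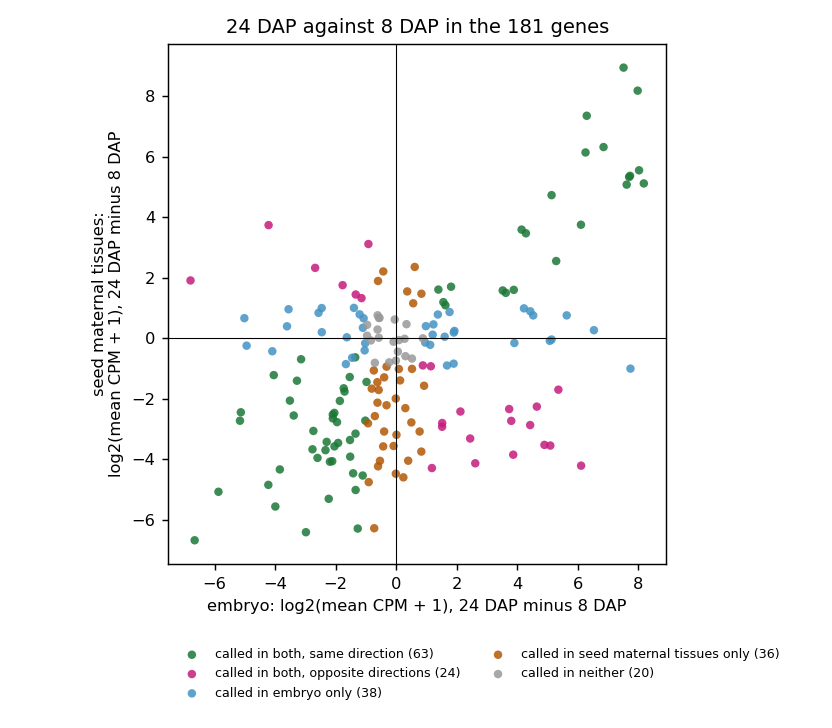
Change between 8 and 24 DAP as a difference of log2(mean CPM + 1), 24 minus 8 DAP, in the embryo (horizontal) and in the seed maternal tissues (vertical), 1 point per gene, coloured by the calls of edgeR's test in the 2 tissues. The 63 genes called in the same direction in both lie in the upper right and lower left, and the 24 called in opposite directions lie in the upper left and lower right.

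Among the genes whose change was more upward in the embryo, 1HG0069130 had 68.6, 88.5 and 73.1 CPM at 24 DAP against 0.0656, 0 and 0.299 CPM at 8 DAP in the embryo. The maternal libraries gave 3.97, 1.69 and 1.60 CPM at 24 DAP against 78.2, 70.9 and 38.8 CPM at 8 DAP. The gene rose in one tissue and fell in the other (difference of the log2 fold changes 13.61, SE 1.46, adjusted p = 5.77e-07). It met the embryo level at 24 DAP alone and had its maternal peak at 8 DAP, so this p-value is a description. HORVU.MOREX.r3.2HG0178010.1 crossed in the same way, with 44.9, 46.3 and 18.6 CPM at 24 DAP in the embryo and no more than 2 counts in a library at 8 DAP, at least 245-fold higher. In the seed maternal tissues it had 0.41, 1.53 and 0.434 CPM at 24 DAP against 22.9, 26.7 and 10.4 CPM at 8 DAP (adjusted p = 6.1e-10 for the difference between tissues). 2HG0116940, lost from the seed maternal tissues, had 4.61, 3.41 and 3.37 CPM at 24 DAP and 8.85, 4.25 and 7.68 CPM at 8 DAP in the embryo, where no call was made (adjusted p = 3.59e-11 for the difference).

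In the other direction stood 2HG0209220, with 65.5, 37.6 and 69.8 CPM at 24 DAP against 11.2, 16.6 and 16.0 CPM at 8 DAP in the seed maternal tissues, a rise (log2 fold change 1.91, SE 0.474, adjusted p = 0.00208) beside its near loss from the embryo (difference of the log2 fold changes -10.57, SE 0.836, adjusted p = 1.49e-10). HORVU.MOREX.r3.4HG0332240.1 fell in the embryo, with 8.15, 6.14 and 3.52 CPM at 24 DAP against 121, 137 and 126 CPM at 8 DAP (log2 fold change -4.47, SE 0.511, adjusted p = 1.36e-08). It rose in the seed maternal tissues, with 44.1, 16.3 and 43.3 CPM at 24 DAP against 0.973, 1.39 and 2.64 CPM at 8 DAP (log2 fold change 4.31, SE 0.516, adjusted p = 7.27e-08). The difference between the tissues passed too (difference of the log2 fold changes -8.78, SE 0.726, adjusted p = 8.97e-11). 5HG0465250 had 33.8, 31.6 and 73.0 CPM at 24 DAP and 46.5, 53.0 and 65.7 CPM at 8 DAP in the seed maternal tissues, overlapping ranges (adjusted p = 0.528), while it fell in the embryo (difference of the log2 fold changes -6.26, SE 0.621, adjusted p = 2.37e-09).

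Set side by side at each shared stage, with a difference of at least 1 in log2(CPM + 1) between group means, 44 of the 181 genes were higher in the embryo than in the seed maternal tissues at 8 DAP and 83 lower. At 16 DAP, 89 were higher in the embryo and 48 lower, and at 24 DAP 78 were higher and 45 lower. Among the 7683 other genes at like levels, 22.8% were higher in the embryo and 23.9% lower at 8 DAP, 22.3% higher and 18.5% lower at 16 DAP, and 19.0% higher and 18.6% lower at 24 DAP. The genes higher in the embryo were thus the fewer at 8 DAP and the more numerous at 16 and 24 DAP. Levels of the 2 tissues entered the choice of the genes, and these counts carry no test.

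The low endosperm signal was tested only between its first stages. At 8 DAP, 28 of the 181 genes were higher and 46 lower than at 4 DAP, while 25.9% of all genes tested were called higher and 20.9% lower. The 181 genes were thus called less often as higher, in 15.5%, and somewhat more often as lower, in 25.4%, a difference that was not tested. With library sizes alone, a scaling that moved the median of all genes by 0.69 on the log2 scale, 45 were higher and 28 lower, so the balance between the directions depends on the scaling. The 928 genes high in the seed maternal tissues alone summed to 2213 CPM in the endosperm at 8 DAP and 2255 CPM at 4 DAP, and the 211 high in the embryo alone to 309.7 CPM at 8 DAP and 331 CPM at 4 DAP. In 47 genes one or both of these stages had no more than 3 counts in each library. The 4 DAP endosperm libraries form a run of library numbers of their own, so that stage and run cannot be told apart here.

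The identifiers carry a chromosome number, and the 181 genes were spread over all 7 chromosomes. There were 23 on 1H, 36 on 2H, 38 on 3H, 18 on 4H, 24 on 5H, 20 on 6H and 22 on 7H. From 1H to 7H these were 12.7%, 19.9%, 21.0%, 9.94%, 13.3%, 11.0% and 12.2% of the 181 genes. Of the genes that reached 20 CPM in some group, the shares were 13.4%, 16.2%, 15.3%, 12.5%, 16.3%, 11.7% and 14.3%. No test was made of these shares. In the order of the table, 7 pairs of the 181 genes lay within 5 places of each other. HORVU.MOREX.r3.7HG0634870.1 and HORVU.MOREX.r3.7HG0634880.1, next to each other, both had their embryo peak at 16 DAP and their maternal peak at 4 DAP, and their log2(CPM + 1) over the 39 libraries, which share tissue and depth, had a Pearson r of 0.878. 2HG0209220 lies 4 places from HORVU.MOREX.r3.2HG0209260.1, with an r of 0.893, and that gene 3 places from HORVU.MOREX.r3.2HG0209290.1, with an r of 0.637. HORVU.MOREX.r3.5HG0429360.1 and 5HG0429390, 3 places apart, had an r of -0.0873. The first had 4.57, 2.34 and 1.43 CPM at 24 DAP against 132, 143 and 173 CPM at 8 DAP in the seed maternal tissues, the reverse of the rise in 5HG0429390 given above. The rule made all 181 genes low in the endosperm libraries, which by itself raises r between any 2 of them over the 39 libraries. No r was taken for genes lying further apart, so nothing about neighbours is read from these values. Reads shared by near-identical neighbours could have been split in the counting, so values of such pairs are uncertain. Of the 181 genes, 3 belong to a gene with more than 1 transcript entry.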

How the data were processed

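Read counts were measured by single-end sequencing of poly-A selected RNA in 39 libraries. The deposited table holds whole-number counts per transcript entry, not normalized by the authors and with replicates not pooled. The submitters' processing notes name bcl2fastq, HISAT2 2.1.0, SAMtools and Subread 1.5.2, without their settings. How strand and multi-mapping reads were handled is not given in the sources used here. Identifiers carry the prefix of the Morex r3 annotation, and no coordinates were used.

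CPM was computed over the total count of each library. The genes, the lists and the tests were chosen with earlier results of these data known. The filterByExpr filter, run over the 13 groups, left 29594 genes, which were fitted with edgeR 4.0.16 (R 4.3.3) in 1 model with a coefficient per group over 39 libraries (26 residual degrees of freedom), with TMM factors, estimateDisp, glmQLFit with robust set, and glmQLFTest. Benjamini-Hochberg adjustment ran over every gene in the fit. Calls needed an adjusted p under 0.05 and a log2 fold change of 1 or more in size. Standard errors come from the F statistic. TMM factors ran from 1.065 to 1.310 in the embryo, from 1.207 to 1.347 in the seed maternal tissues and from 0.454 to 0.921 in the endosperm, so that CPM and the fitted changes differ in scale. A group at 3 counts or fewer in each library was taken as being at the floor, and folds against it are lower bounds computed on CPM against 3 counts in each library. Reads had no molecular identifiers and may not be independent molecules, so floors reflect counting error alone.

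Replicates of a group had Pearson correlations of log2(CPM + 1) between 0.975 and 0.997, and their counts differed by a chi-square statistic of 5.66 to 193 per degree of freedom, above the sampling noise in each pair. The fit was first tested on simulated counts for 24 over 8 DAP in the embryo, with 50 changed genes per size and direction. Of 4-fold changes, 90% of falls and 80% of rises were called. Of 2-fold changes, which lie at the fold minimum, 22% of falls and 16% of rises were called. There were 6 false calls among 28764 genes. A missing call therefore does not show that a gene stayed level.

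Named were the 8 genes with the highest smaller maximum, the 3 with at most 3 counts in every endosperm library, the 3 largest rises and falls from 8 to 24 DAP in each tissue (called, at least 20 CPM at the higher stage, libraries not overlapping), the 3 largest differences between tissues in each direction and genes at the thresholds. The alternatives were upper-quartile factors, library size alone, DESeq2 1.42.0, no filter, no fold minimum, a replicate block, a term for the run of library numbers, run 1 alone, each library left out, and for the choice of genes TMM-scaled CPM and group medians. Gene families and marker genes that had been planned were not analysed, since 0 identifiers matched the reference table.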

Additional observations from a re-analysis of the deposited data

Results flagged for a closer look

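Flagged was a difference between the 2 tissues under the same contrast, by the interaction test of edgeR with Benjamini-Hochberg adjustment over all genes. The change from 8 to 24 DAP was more upward in the embryo than in the seed maternal tissues in 89 of the 181 genes (49.2%) and less so in 32 (17.7%). Of all genes tested these were 15.8% and 12.5%, and of the 7683 other genes at like levels 19.0% and 16.0%. With the run term the counts were 74 and 20. The genes were chosen through their highest stages, so these counts and the p-values that follow are a description. By fitted log2 value, the largest differences upward in the embryo were in HORVU.MOREX.r3.1HG0069130.1 (adjusted p = 5.77e-07), HORVU.MOREX.r3.2HG0178010.1 (adjusted p = 6.1e-10) and HORVU.MOREX.r3.2HG0116940.1 (adjusted p = 3.59e-11). Those upward in the seed maternal tissues were in HORVU.MOREX.r3.2HG0209220.1 (adjusted p = 1.49e-10), HORVU.MOREX.r3.4HG0332240.1 (adjusted p = 8.97e-11) and HORVU.MOREX.r3.5HG0465250.1 (adjusted p = 2.37e-09). In each of these 6 genes the 3 libraries of 24 DAP lay apart from the 3 of 8 DAP in at least 1 of the tissues. The 6 genes were picked as the largest differences, so nothing is read from this. The 8 DAP and 24 DAP maternal libraries lie in different runs of library numbers.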

How the results depend on the processing

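The named genes ranked by rise, fall or difference between tissues kept the direction of their change under the settings tried. This covers 144 checks that left out 1 library and 114 others, of which 1 lost its call. The remaining genes were not followed one by one. Counts of genes were followed only in size, and 2 balances between higher and lower calls turned. These were that of the endosperm, given here, and that of the embryo for 24 over 8 DAP. The embryo had 60 higher and 65 lower genes in all libraries against 63 and 62 with replicates 1 and 2 alone. Of 150 settings for counts of genes (other than leaving out a library) 141 stayed within 1.5 times, and so did 166 of 171 that left out 1 library. TMM-scaled CPM left 94 of the 181 genes by the rule, all shared. Group medians gave 181 genes, 162 of them shared. A term for the run of library numbers gave 12 higher and 58 lower genes for 24 over 8 DAP in the seed maternal tissues, 5 and 35 for 16 over 8 DAP, and 20 genes less upward in the embryo in the interaction. Library size alone gave 4 higher genes for 32 over 24 DAP in the embryo, and 45 higher and 28 lower for 8 over 4 DAP in the endosperm, where DESeq2 gave 27 and 64; the median of all genes moved by 0.13 in the embryo for 16 over 8 DAP and by 0.69 in the endosperm with library size alone. Leaving out 1 library in turn gave 5 to 7 lower genes for 16 over 8 DAP in the embryo, 2 to 6 higher for 32 over 24 DAP in the embryo, and 14 to 30 higher for 8 over 4 DAP in the seed maternal tissues. The cause of these shifts was not tested. Endosperm depth limits the low side: 3 counts correspond to 0.0826 to 0.488 CPM there.

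The labels do not say whether equal replicate numbers mark paired samples, and the main tests took the samples as unpaired. Over 39 pairs of libraries with the same number, deviations from the group means correlated between -0.246 and 0.215, and 4 pairs exceeded 0.1. With 3 libraries per group, this check cannot exclude pairing. A model with a replicate block gave 60 higher and 65 lower genes for 24 over 8 DAP in the embryo, 35 and 88 in the seed maternal tissues, and 89 and 31 in the interaction.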
